A study of Mus musculus with 13 samples.

Results

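The 5 genes described here are the neuregulin ligands Nrg1, Nrg2 and Nrg3 and the receptors Erbb3 and Erbb4. They were taken by their symbols from the 32285 genes of the count matrices, and all 5 were present. The data are single-nucleus RNA sequencing of whole frozen hippocampus from 13 female mice of the C3B6F1 hybrid strain, spelled C3HB6F1 in the sample labels, with 1 library per sample, each taken as 1 mouse. The 4 groups were young mice of 5 months fed ad libitum (n = 3), old mice of 24 months fed ad libitum (n = 3), old mice of 24 months under acute dietary restriction started at 20 months (n = 3), and old mice of 24 months under long-term dietary restriction started at 5 months (n = 4). All of the animals shared sex and strain, and no transgene or drug is named. The diet's restriction level is not given in the sources used here.

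Neuregulins are growth factors of the epidermal growth factor family. Most are made as membrane-bound precursors that are cut by proteases such as BACE1 and ADAM enzymes. Depending on the neuregulin, they bind the receptor tyrosine kinase ErbB3, ErbB4 or both. ErbB3 has little kinase activity of its own and signals through a partner receptor such as ErbB2, whereas ErbB4 signals by itself or in a pair. In the forebrain, ErbB4 is best known from inhibitory interneurons, where neuregulin signals shape the synapses these cells receive and form, and ErbB3 is best known from the oligodendrocyte and Schwann cell lineages.

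Nuclei were grouped by markers that did not include the 5 genes or the rest of their pathway. Of 98041 nuclei retained, 86169 were placed in 16 named classes, and 11872 were left unnamed because their clusters raised too few markers, were made mostly of doublets, or had leading genes that marked another class. Dentate granule neuron-like nuclei were the most numerous class, with 40415 nuclei. There were 10008 oligodendrocyte-like, 7388 astrocyte-like, 9219 CA1 pyramidal neuron-like and 5086 inhibitory neuron-like nuclei. Libraries held between 38546292 and 80538090 UMIs, where a UMI marks 1 captured RNA molecule. The medians of UMIs per nucleus differed with age: granule neuron-like nuclei had 3879 to 6562.5 in the young mice and 7095 to 12789 in the old mice fed ad libitum. In oligodendrocyte-like nuclei these medians were 1181 to 1743 and 1990 to 3169, and in astrocyte-like nuclei 1634 to 2535 and 2854.5 to 5026. Of the classes compared for age below, only CA3 pyramidal neuron-like and endothelial-like nuclei had medians that overlapped between the 2 ages. In all others, these 3 included, depth and age cannot be told apart among the mice fed ad libitum. In the same 3 classes, old mice under acute restriction had 5682 to 6903, 1577 to 1890 and 2278 to 3066.5, overlapping the young. They did not overlap the old mice fed ad libitum in granule neuron-like and oligodendrocyte-like nuclei. The same held for mural cell-like, microglia-like and CA1 pyramidal neuron-like nuclei. In each of these classes depth and acute restriction thus cannot be told apart against old mice fed ad libitum. For mural cell-like nuclei this also holds for long-term restriction, at 1215 to 1380 against 1553 to 2199. Shares of nuclei below were taken after thinning to 1000 UMIs per nucleus, unless given as before thinning. Nuclei with fewer than 1000 UMIs were left out, and 85327 of the 86169 named nuclei stayed. The lowest median of microglia-like nuclei in a young mouse was 934.5 UMIs, so thinned shares of that class come from its deeper nuclei. The 4 libraries numbered 1, one in each group, also deviated together from their group means. Any 2 libraries shared between 4 and 40 barcodes.

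Levels are given as CPM, the UMIs of a gene scaled to 1000000 UMIs of that class in that mouse, so they are compared between classes and mice within a gene and not between genes. On GRCm38 (mm10), with GENCODE M21 gene models, all 5 genes lie on the minus strand. Nrg1 spans chr8:31814551-32884029, Nrg2 chr18:36017652-36197380, Nrg3 chr14:38368952-39473088, Erbb3 chr10:128567523-128589652 and Erbb4 chr1:68032186-69108059. Nrg1, Nrg3 and Erbb4 are among the longest genes of the genome, at 1069.5, 1104.1 and 1075.9 kb, and between 0.127% and 0.149% of annotated genes are longer. Nrg2 spans 179.7 kb and Erbb3 22.1 kb. In nuclei much of the RNA of a long gene is unspliced, and whether introns and strand were used in counting is not given in the sources used here. The antisense genes Nrg3os, Gm20641 and Gm20642 overlap Nrg3 and the antisense gene 4930471G03Rik overlaps Nrg2, so the split of reads within these pairs is uncertain. Erbb4 overlaps 8 annotated genes of its own strand, 1 of them in the count matrices, and its split from that gene is uncertain too.

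Among the ligands, Nrg1 was highest of the named classes in Cajal-Retzius neuron-like nuclei, an early-born cell type of the outer molecular layer. Its level there was 3535 ± 950 CPM (SD, n = 7 mice with at least 20 such nuclei), higher than in subicular or cortical excitatory neuron-like nuclei in 7 of 7 mice. The next classes in order were subicular or cortical excitatory neuron-like nuclei at 2106 ± 423 CPM (n = 13), granule neuron-like nuclei at 1520 ± 463 CPM and CA1 pyramidal neuron-like nuclei at 1175 ± 388 CPM. These neighbours were not ordered alike in every mouse: the first was above the second in 12 of 13 mice, and the second above the third in 11 of 13. Oligodendrocyte precursor-like nuclei followed at 833 ± 74.3 CPM, with CA3 pyramidal neuron-like nuclei at 562 ± 422 CPM and inhibitory neuron-like nuclei at 447 ± 75.8 CPM. The CA3 values ran from 116 to 1667 CPM, the widest relative range of the neuronal classes with 13 mice.

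Hilar mossy cell-like nuclei, excitatory neurons of the dentate hilus, were low in Nrg1, with 55.0 ± 16.8 CPM in the 8 mice with at least 20 such nuclei and 96.5 CPM pooled over all 13 mice (exact 95% Poisson interval 87.0 to 106.7, counting error only). Microglia-like nuclei, taken here as a class that should hold little neuregulin RNA of its own, had 112 ± 76.7 CPM. At 1000 UMIs per nucleus, 9.20% of microglia-like nuclei had an Nrg1 UMI, against 7.69% of oligodendrocyte-like, 7.81% of astrocyte-like and 4.76% of mossy cell-like nuclei. The median depths of these classes before thinning were 1402 UMIs for microglia-like, 1885 for oligodendrocyte-like, 2701 for astrocyte-like and 10223 for mossy cell-like nuclei. Before thinning, the shares with an Nrg1 UMI were 13.89%, 14.04%, 18.01% and 31.6% in that order. Whether mossy cell-like and astrocyte-like nuclei lay above or below the microglia-like share for Nrg1 thus depended on depth, and no reading is taken from it. The oligodendrocyte-like share, averaged over all mice, was close to or below the microglia-like one both ways, and expression of Nrg1 in these nuclei is not read from it.

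Nrg2 was highest in granule neuron-like nuclei among the classes with 13 mice, at 366 ± 39.7 CPM (lowest 306, median 366, highest 436). It followed at 198 ± 39.4 CPM in oligodendrocyte precursor-like and 189 ± 21.7 CPM in inhibitory neuron-like nuclei, which did not differ beyond their spread (precursors higher in 7 of 13 mice). Inhibitory neuron-like nuclei were above subicular or cortical excitatory neuron-like nuclei, at 150 ± 22.7 CPM, in 13 of 13 mice, and these were above astrocyte-like nuclei, at 90.0 ± 29.8 CPM, in 13 of 13. CA1 and CA3 pyramidal neuron-like nuclei had 57.8 ± 7.19 and 35.2 ± 9.45 CPM, against 21.3 ± 21.4 CPM in microglia-like nuclei. The granule neuron-like level of Nrg2 was thus the highest of the principal neuron classes, in contrast to Nrg1 and Nrg3.

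Nrg3 RNA was found in nearly every neuron-like nucleus: at 1000 UMIs, 96.9% of inhibitory, 98.3% of granule and 99.9% of subicular or cortical excitatory neuron-like nuclei had at least 1 UMI. Of the named classes its level was highest in subicular or cortical excitatory neuron-like nuclei, at 8473 ± 1149 CPM (n = 13), then in CA3 pyramidal neuron-like nuclei, at 6463 ± 811 CPM, and in CA1 pyramidal neuron-like nuclei, at 5460 ± 569 CPM, each step being present in 13 of 13 mice. Inhibitory neuron-like nuclei, at 5379 ± 513 CPM, and granule neuron-like nuclei, at 5045 ± 497 CPM, did not differ from their neighbours in that order beyond the spread between mice. Oligodendrocyte precursor-like nuclei were the highest glial class, at 2080 ± 248 CPM, with an Nrg3 UMI in 81.6% of thinned nuclei. In microglia-like nuclei that share was 33.9%, above the 27.2% of oligodendrocyte-like and 19.6% of astrocyte-like nuclei. Before thinning these 3 shares were 42.2%, 41.6% and 42.1%. Expression of Nrg3 in oligodendrocyte-like and astrocyte-like nuclei is not read from these shares, and the source of this RNA was not tested.

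The receptors followed another pattern. Erbb4 was highest in inhibitory neuron-like nuclei, at 8832 ± 1047 CPM (n = 13; lowest 6843, median 8929, highest 10449). Oligodendrocyte precursor-like nuclei came next at 3200 ± 416 CPM (2474 to 4061), below inhibitory neuron-like nuclei in 13 of 13 mice, and oligodendrocyte-like nuclei followed at 2206 ± 323 CPM (1789 to 2897), below the precursors in 13 of 13. Excitatory classes were near the bottom: granule, CA1 and CA3 neuron-like nuclei had 20.4 ± 7.59, 17.5 ± 4.76 and 18.6 ± 6.45 CPM. At 1000 UMIs, 89.3% of inhibitory neuron-like, 94.1% of precursor-like and 79.9% of oligodendrocyte-like nuclei had an Erbb4 UMI, against 2.09% of granule and 1.39% of CA1 neuron-like nuclei. Astrocyte-like nuclei lay between, at 367 ± 101 CPM and a share of 22.1%, above the 5.70% of microglia-like nuclei. Macrophage-like nuclei had 633 ± 739 CPM (n = 3) and fibroblast-like nuclei 324 ± 288 CPM (n = 9). Neither class differed from astrocyte-like nuclei beyond the spread between mice.

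Erbb3 was highest in the oligodendrocyte lineage. Oligodendrocyte-like nuclei had 100.5 ± 18.7 CPM (n = 13; lowest 61.9, median 104.5, highest 130.6), and oligodendrocyte precursor-like nuclei had 32.9 ± 8.18 CPM (17.8 to 43.4), lower in 13 of 13 mice. The mean of each other class with levels was 4.20 CPM or lower. Pooled over mice, granule neuron-like nuclei held 73 Erbb3 UMIs among 275504054, and hilar mossy cell-like nuclei held none among 3937804, for which the exact 95% Poisson interval reaches up to 0.937 CPM (counting error only). The plot of levels by class shows the ligands and receptors side by side. Inhibitory neuron-like and oligodendrocyte precursor-like nuclei held RNA of both Nrg3 and Erbb4.

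**Figure D1:**
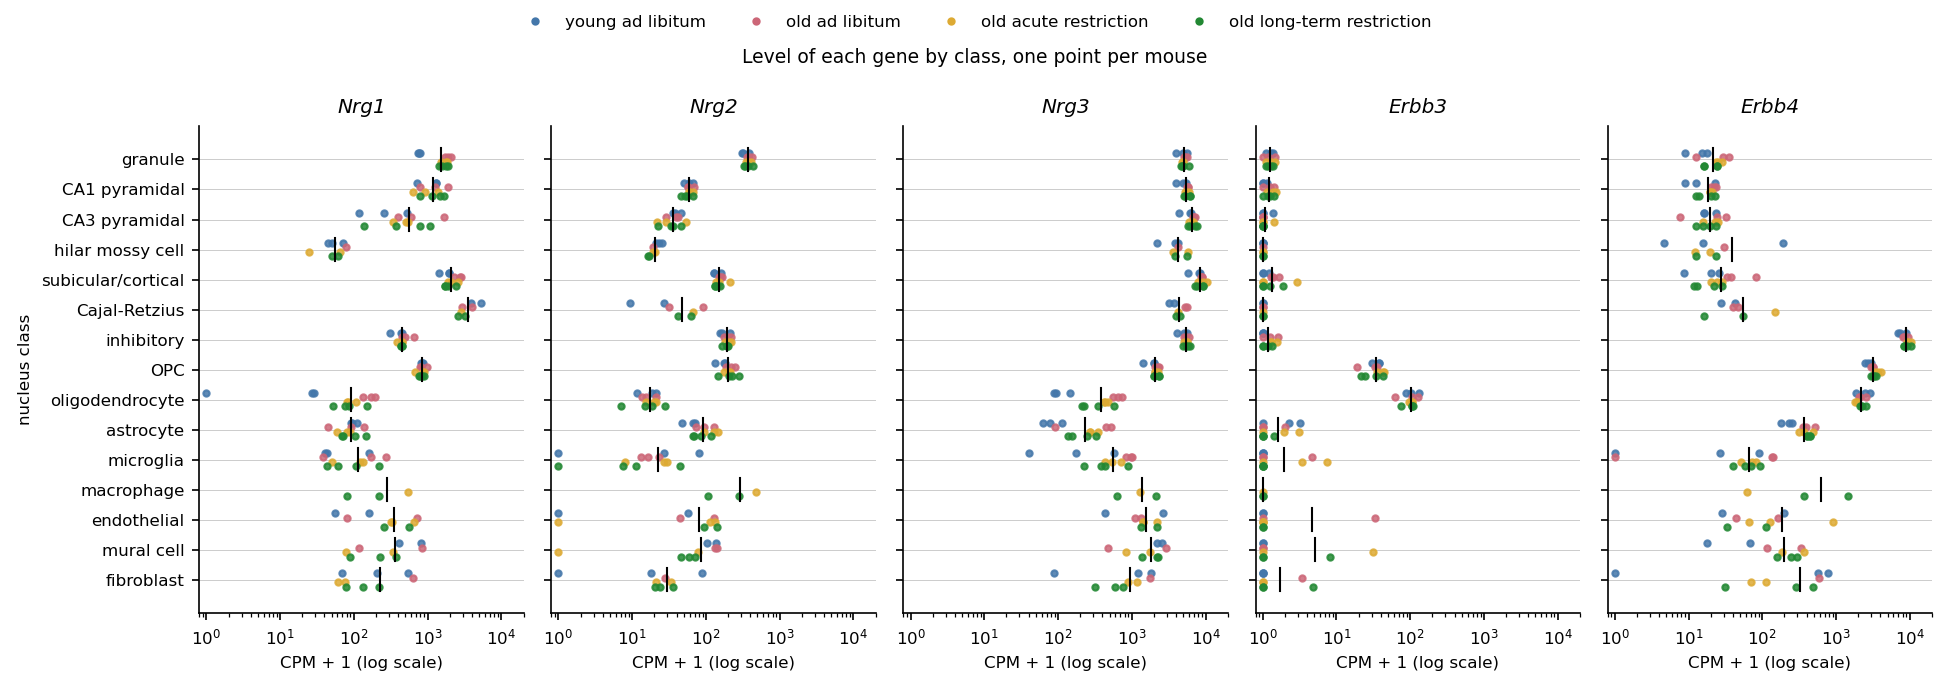
Level of each of the 5 genes (CPM + 1, log scale) in 15 nucleus classes, with 1 point per mouse coloured by group and a black bar at the mean. The mean of Erbb4 is 8832 CPM in inhibitory neuron-like, 3200 in oligodendrocyte precursor-like (OPC) and 2206 in oligodendrocyte-like nuclei, against 20.4 in granule neuron-like nuclei, and that of Erbb3 is 100.5 CPM in oligodendrocyte-like nuclei and 32.9 in OPC.

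Within inhibitory neuron-like nuclei, 3761 of 5086 could be placed in 5 subclasses named for a marker gene. Erbb4 followed a fixed order among them. Lamp5 interneuron-like nuclei, whose class includes neurogliaform cells, had 14393 ± 1286 CPM (n = 13; 11379 to 16039), and Pvalb interneuron-like nuclei, which include fast-spiking basket cells, had 12223 ± 1247 CPM (n = 12). Vip interneuron-like nuclei had 10216 ± 967 CPM (n = 13) and Cnr1 interneuron-like nuclei 5639 ± 927 CPM (n = 9). Sst interneuron-like nuclei had 1207 ± 366 CPM (n = 12; 461 to 1651), and 48.8% of them had an Erbb4 UMI at 1000 UMIs, against 95.8% to 100% in the other 4 subclasses. Every step of this order was present in all mice with both subclasses: 12 of 12, 12 of 12, 9 of 9 and 9 of 9.

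The ligands were ordered otherwise in the same nuclei. Nrg3 was highest in Vip interneuron-like nuclei, at 9854 ± 1555 CPM, above Sst interneuron-like nuclei, at 5636 ± 808 CPM, in 12 of 12 mice, and lowest in Lamp5 and Cnr1 interneuron-like nuclei, at 3874 ± 473 and 3726 ± 533 CPM, which had no fixed order (Lamp5 higher in 4 of 9 mice). Nrg1 was highest in Cnr1 interneuron-like nuclei, at 892 ± 243 CPM, above Lamp5 interneuron-like nuclei, at 563 ± 165 CPM, in 9 of 9 mice, with Sst and Pvalb interneuron-like nuclei at 223 ± 61.8 and 209 ± 119 CPM. Nrg2 was highest in Lamp5 interneuron-like nuclei, at 306 ± 48.7 CPM, above Pvalb interneuron-like nuclei in 12 of 12 mice, and the other 4 subclasses lay between 145 and 162 CPM without a fixed order.

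**Figure D2:**
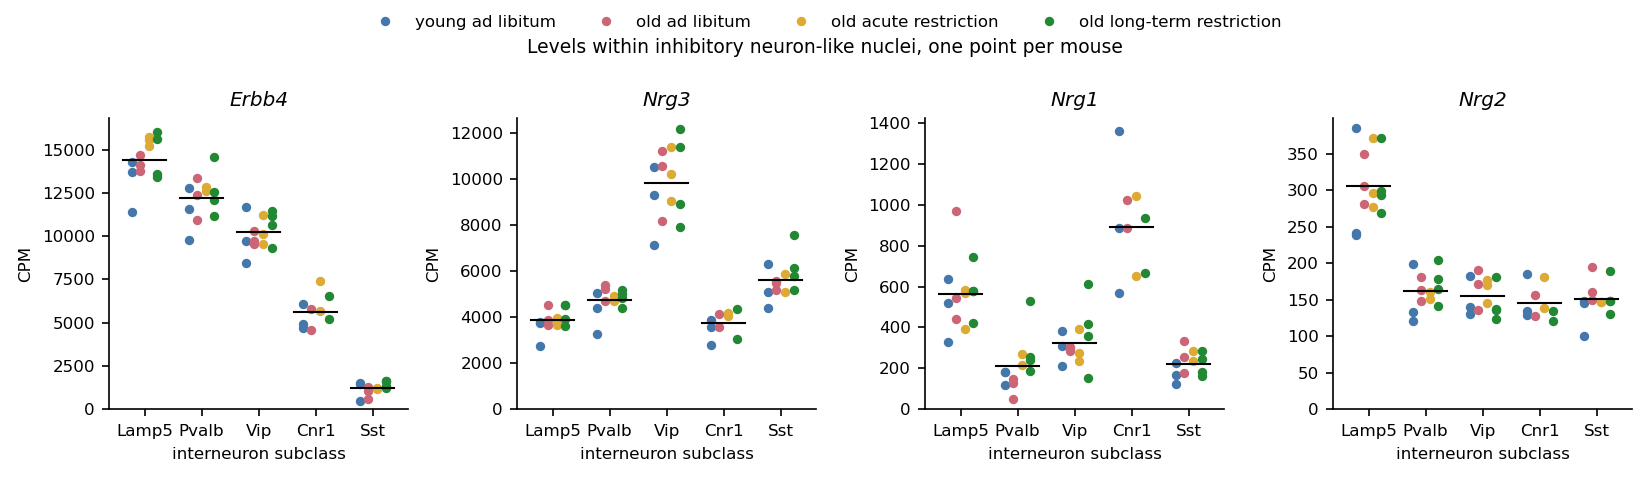
Levels of Erbb4, Nrg3, Nrg1 and Nrg2 (CPM) in 5 interneuron subclasses, with 1 point per mouse coloured by group and a line at the mean. Erbb4 is lowest in Sst interneuron-like nuclei at 1207 CPM on average, Nrg3 highest in Vip at 9854, Nrg1 highest in Cnr1 at 892 and Nrg2 highest in Lamp5 at 306.

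Age was compared in the mice fed ad libitum, old minus young, in the 11 classes with enough nuclei. Of 44 pairs of gene and class that passed the filter on low counts, 4 were called at an adjusted p below 0.05 (edgeR quasi-likelihood test, adjusted over all genes of a class), all higher in old mice. They were Nrg1 in granule neuron-like and oligodendrocyte-like nuclei, Nrg3 in oligodendrocyte-like nuclei and Erbb4 in astrocyte-like nuclei. Averaged over all mice, the Nrg1 and Nrg3 shares of oligodendrocyte-like nuclei were not above those of microglia-like nuclei at 1000 UMIs. Over all genes and classes, 1.55% of tests were called in this comparison, and 0.89% were called higher. The fitted change was above 0 in 34 of 44 pairs, with a median of 0.38 on the log2 scale. The medians over all genes of a class lay between -0.04 and 0.01. An unadjusted p below 0.05 was found in 18 pairs. The share of all genes below that threshold is not given. Such counts, here and below, are thus not read as a result about these genes as a set. With the trend of fold change on gene length removed, 27 of 44 changes were above 0 and their median was 0.087. No call was made for Nrg2 (9 classes tested, 3 with an unadjusted p below 0.05) or for Erbb3 (2 classes tested, 0 with an unadjusted p below 0.05), by edgeR or by DESeq2 with the filter on low counts. With no filter, edgeR called Nrg2 in oligodendrocyte precursor-like nuclei (0.55 on the log2 scale, adjusted p = 0.0307).

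In granule neuron-like nuclei, Nrg1 was 769, 740 and 794 CPM in the 3 young mice and 1701, 1915 and 2097 CPM in the 3 old mice fed ad libitum. The groups did not overlap, and the 3 young values lay close together. Nrg1 rose by 1.47 ± 0.14 (SE) on the log2 scale, a 2.78-fold difference (edgeR adjusted p = 0.000376), in a class where 2.34% of genes were called higher. At 1000 UMIs per nucleus, between 41.4% and 41.7% of nuclei in young mice had an Nrg1 UMI, against 67.8% to 76.3% in old mice fed ad libitum. With the median UMIs per nucleus as a covariate the change was 1.32 (edgeR adjusted p = 0.0295), and with the trend of fold change on gene length removed it was 1.06 (edgeR adjusted p = 7.95e-05).

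The granule neuron-like class was made of 3 clusters, numbered 0, 1 and 3, which differed in Nrg1 level. Clusters 0 and 1 also differed in their share of nuclei at the 2 ages. Nrg1 was highest in cluster 1, at 2424 ± 468 CPM, then in cluster 0, at 1536 ± 500 CPM, and in cluster 3, at 719 ± 218 CPM, in that order in 13 of 13 mice. Nrg3 had the opposite order, with 4100 ± 394, 5117 ± 482 and 5815 ± 580 CPM, again in 13 of 13. Cluster 1 made up 13.02% to 21.68% of granule neuron-like nuclei in young mice and 29.86% to 43.54% in old mice fed ad libitum. Cluster 0 made up 51.44% to 71.23% and 30.31% to 36.51%. The shares of cluster 3 overlapped, at 15.75% to 33.71% and 22.31% to 33.63%.

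Nrg1 differed with age inside each of the 3 clusters. In cluster 0 it was 781, 691 and 771 CPM in young mice and 1800, 1839 and 2169 CPM in old mice fed ad libitum, a rise of 1.52 ± 0.17 on the log2 scale (edgeR adjusted p = 0.00051). In cluster 3 the values were 350, 412 and 336 CPM against 820, 864 and 982 CPM, a rise of 1.43 ± 0.14 (edgeR adjusted p = 7.04e-05). In cluster 1 they were 2001, 1522 and 1593 CPM against 2925, 2773 and 2981 CPM, a smaller fitted rise of 0.88 ± 0.14 (edgeR adjusted p = 0.0159). The age groups did not overlap in any of these clusters, for which 1.94% of tests over all genes were called in either direction. Whether the change differed between the clusters was not tested.

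**Figure D3:**
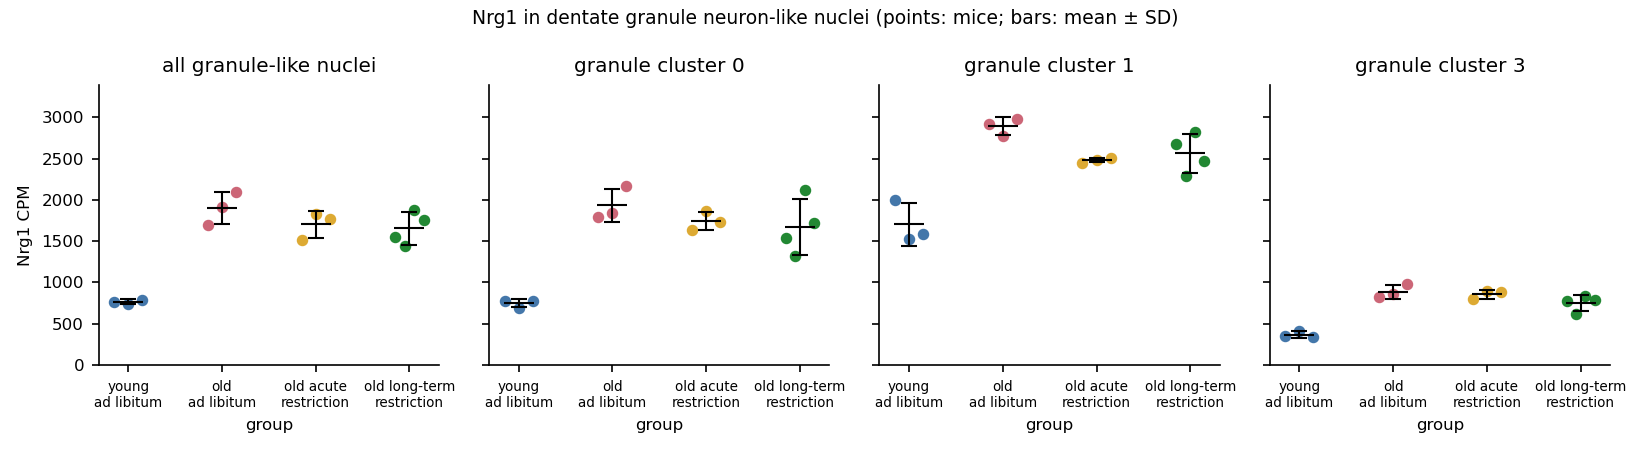
Nrg1 level (CPM, axis from 0) in all granule neuron-like nuclei and in their clusters 0, 1 and 3, by group, with 1 point per mouse and bars for the mean and SD. Young mice lie between 740 and 794 CPM in the whole class and the 10 old mice between 1444 and 2097.

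In the restricted old mice, granule neuron-like Nrg1 lay above all 3 young mice. It was 1517, 1828 and 1771 CPM under acute restriction and 1546, 1444, 1881 and 1758 CPM under long-term restriction. Of these 7 values, 4 lay inside the old ad libitum range and 3 below it. The change was -0.16 ± 0.14 for acute restriction and -0.18 ± 0.13 for long-term restriction on the log2 scale (edgeR adjusted p = 1.0 for each). Both of these comparisons use the same 3 old ad libitum libraries as the age comparison.

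Subicular or cortical, inhibitory and CA1 neuron-like nuclei gave positive but uncalled differences for Nrg1 with age. CA3 pyramidal neuron-like nuclei gave no call either, and 9 of the 11 classes had a change above 0. In subicular or cortical excitatory neuron-like nuclei, Nrg1 was 1932, 1416 and 1922 CPM in young and 2271, 2714 and 2801 CPM in old mice fed ad libitum (log2 difference 0.69 ± 0.19, edgeR adjusted p = 0.164). In inhibitory neuron-like nuclei it was 449, 434 and 306 CPM against 495, 444 and 652 CPM (0.52 ± 0.14, edgeR adjusted p = 0.113). The groups did not overlap in the first class, and overlapped by 1 young mouse in the second. The inhibitory neuron-like difference was called with no filter on low counts (0.57, edgeR adjusted p = 0.0418), with a term for the libraries numbered 1 (0.52, edgeR adjusted p = 0.031) and without young replicate 1 (0.63, edgeR adjusted p = 0.0457). DESeq2 called both differences. CA1 pyramidal neuron-like nuclei gave 0.39 ± 0.35 (edgeR adjusted p = 0.562) with overlapping groups, and oligodendrocyte precursor-like nuclei 0.11 ± 0.12 (edgeR adjusted p = 0.714).

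In oligodendrocyte-like nuclei, Nrg1 was 0, 27.5 and 25.9 CPM in young mice and 193, 134 and 170 CPM in old mice fed ad libitum. The groups did not overlap; the young values rest on 0, 25 and 27 UMIs, and the first of them on 48 nuclei. At 1000 UMIs, 7.41%, 12.5% and 17.4% of these nuclei in the old mice fed ad libitum had an Nrg1 UMI, against 3.03%, 15.5% and 20.5% of microglia-like nuclei of the same mice. For Nrg3 these shares were 15.7%, 47.2% and 42.2% against 18.2%, 63.8% and 60.3%. The oligodendrocyte-like share was thus the lower one in 2 of 3 old mice for Nrg1 and in 3 of 3 for Nrg3. Nrg1 rose by 2.71 ± 0.40 on the log2 scale (edgeR adjusted p = 0.00171). Nrg3 in the same nuclei was 86.2, 91.4 and 146 CPM in young and 728, 642 and 555 CPM in old mice fed ad libitum, a rise of 2.51 ± 0.39 (edgeR adjusted p = 0.00461), and 3.72% of all genes tested in this class were called higher. These 2 calls were not kept with the median UMIs per nucleus as a covariate (Nrg1 1.93, edgeR adjusted p = 0.321; Nrg3 1.81, edgeR adjusted p = 0.49), and that of Nrg3 was not kept without young replicate 2 (2.31, edgeR adjusted p = 0.0751).

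A sum of neuronal genes moved in the same direction in this class. The summed level of 8 genes, called pan-neuronal here (Rbfox3, Snap25, Syt1, Slc17a7, Grin2a, Grin2b, Camk2a and Meg3, a list chosen after the values of the 5 genes were seen), was 463 to 801 CPM in oligodendrocyte-like nuclei of young mice and 1043 to 1725 CPM in those of old mice fed ad libitum, with none of the 8 at 0. The means were 657 ± 174 and 1345 ± 348 CPM. The sum also differed in granule neuron-like nuclei, at 10970 to 11910 against 12880 to 13880 CPM. It was 626 to 1746 against 664 to 2435 CPM in microglia-like nuclei, where the ages overlapped. In microglia-like nuclei, Nrg3 was 39.1, 573 and 172 CPM in young and 983, 993 and 838 CPM in old mice fed ad libitum, also without overlap (1.58 ± 0.62, edgeR adjusted p = 0.371). Nrg1 in microglia-like nuclei was 39.1, 159 and 42.9 CPM against 36.9, 169 and 271 CPM. These microglia-like values rest on few UMIs, and a mouse had as few as 20 such nuclei. The 8 pan-neuronal genes together held 16 UMIs there in young replicate 1 and 54 in old ad libitum replicate 1. The part of this neuronal RNA in the oligodendrocyte-like result was not tested.

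Under restriction, the oligodendrocyte-like values of Nrg1 and Nrg3 lay above all of the young mice, and most lay below the old mice fed ad libitum. Nrg1 was 79.7, 83.5 and 107 CPM under acute and 51.8, 85.6, 150 and 75.2 CPM under long-term restriction. The acute group lay wholly below the old ad libitum group and the long-term group overlapped it through replicate 3, with log2 differences of -0.86 ± 0.30 (edgeR adjusted p = 0.231) and -0.75 ± 0.27 (edgeR adjusted p = 0.373). Nrg3 was 470, 416 and 429 CPM under acute and 213, 352, 579 and 227 CPM under long-term restriction, with differences of -0.62 ± 0.33 (edgeR adjusted p = 0.554) and -0.88 ± 0.31 (edgeR adjusted p = 0.373). None of these 4 differences was called in this fit, and each was called under at least 1 other setting. With the compared groups alone, Nrg1 (-0.84, edgeR adjusted p = 0.00244) and Nrg3 (-0.62, edgeR adjusted p = 0.00387) were called for acute restriction. Without long-term replicate 3, Nrg1 (-1.09, edgeR adjusted p = 0.00212) and Nrg3 (-1.26, edgeR adjusted p = 0.000314) were called for long-term restriction. The 8 pan-neuronal genes summed to 1381 to 1438 CPM under acute and 674 to 1887 CPM under long-term restriction in these nuclei. Depth and acute restriction cannot be told apart in this class, as given above.

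For the receptors, Erbb4 in astrocyte-like nuclei was 251, 229 and 178 CPM in young and 392, 351 and 521 CPM in old mice fed ad libitum. The groups did not overlap, and Erbb4 rose by 0.94 ± 0.17 on the log2 scale (edgeR adjusted p = 0.0163), in a class where 0.305% of genes were called higher. At 1000 UMIs per nucleus, 12.2% to 16.3% of astrocyte-like nuclei in young and 23.3% to 31.7% in old mice fed ad libitum had an Erbb4 UMI. The restricted mice overlapped the old mice fed ad libitum, with 480, 318 and 363 CPM under acute and 443, 406, 401 and 439 CPM under long-term restriction. Inhibitory neuron markers, which would come with RNA of the highest Erbb4 class, summed to 324 to 391 CPM in astrocyte-like nuclei of young and 304 to 354 CPM in those of old mice fed ad libitum, with none of 6 at 0. Oligodendrocyte precursor markers summed to 83.1 to 110 CPM and 83.8 to 144 CPM there, also with none of 6 at 0. The 8 pan-neuronal genes summed to 792 to 891 CPM in young and 820 to 1636 CPM in old mice fed ad libitum in these nuclei, with none at 0. The part of these RNAs in the result was not tested.

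The astrocyte-like Erbb4 call depended on the settings. With the gene length trend removed the difference was 0.32 (edgeR adjusted p = 0.753), and with the median UMIs per nucleus as a covariate it was 1.06 (edgeR adjusted p = 0.171). It was 0.82 without old ad libitum replicate 4 (edgeR adjusted p = 0.0893) and 0.81 without young replicate 3 (edgeR adjusted p = 0.0657). With counts summed from nuclei thinned to 1000 UMIs it was 0.84 (edgeR adjusted p = 0.065), and with the compared groups alone 0.93 (edgeR adjusted p = 0.0902).

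**Figure D4:**
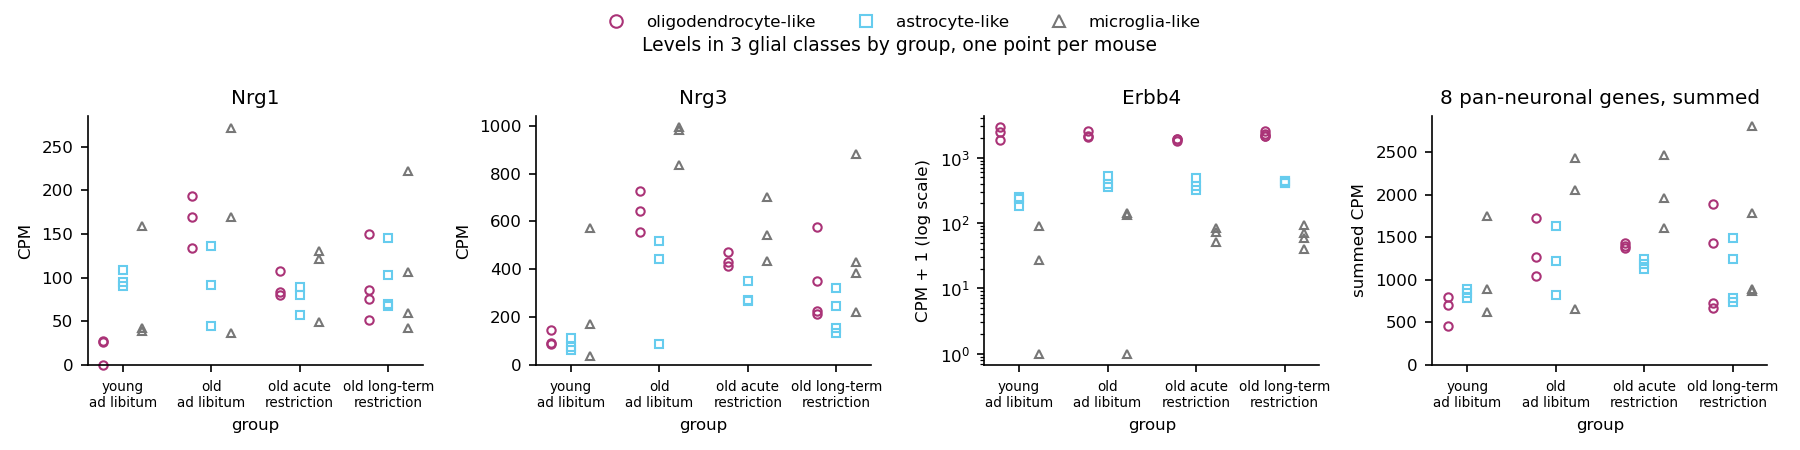
Nrg1 and Nrg3 (CPM), Erbb4 (CPM + 1, log scale) and the summed level of 8 pan-neuronal genes (CPM) in oligodendrocyte-like, astrocyte-like and microglia-like nuclei by group, with 1 point per mouse. Oligodendrocyte-like Nrg3 lies at 86.2 to 146 CPM in young and 555 to 728 in old mice fed ad libitum, and the pan-neuronal sum in these nuclei lies at 463 to 801 in young and 1043 to 1725 in old.

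The classes with the highest Erbb4 gave no call with age in the same fit. Inhibitory neuron-like nuclei had 8929, 6843 and 7475 CPM in young and 8131, 8330 and 9477 CPM in old mice fed ad libitum, overlapping groups with a log2 difference of 0.26 ± 0.14 (edgeR adjusted p = 0.302). Oligodendrocyte precursor-like nuclei had 2962, 2474 and 2722 CPM against 2992 to 3210 CPM, which did not overlap (0.27 ± 0.11, edgeR adjusted p = 0.172), and all 10 old mice against the young gave a call (0.38, edgeR adjusted p = 0.011). In oligodendrocyte-like nuclei Erbb4 was 2897, 1867 and 2479 CPM against 2529, 2053 and 2101 CPM, a difference of -0.01 ± 0.13 (edgeR adjusted p = 0.981); with the gene length trend removed it was -0.96 (edgeR adjusted p = 0.000929). In granule neuron-like nuclei, whose Erbb4 share was under that of microglia-like nuclei at 1000 UMIs and above it before thinning (13.2% against 8.25%), it was 7.99, 16.8 and 14.3 CPM against 11.7, 28.8 and 34.2 CPM (1.13 ± 0.34, edgeR adjusted p = 0.0814). This difference was called under 7 other settings, with values from 1.00 to 1.45, among them DESeq2 (1.11, adjusted p = 0.0119), thinned nuclei (1.16, edgeR adjusted p = 0.0385) and the fit without old ad libitum replicate 1 (1.45, edgeR adjusted p = 0.0359). In the 5 interneuron subclasses, 0 of 20 pairs of gene and subclass were called with edgeR with age. Over all genes, 0.0153% of tests in the subclasses were called. Of the pairs in these subclasses, 4 had an unadjusted p below 0.05, a count with no share of all genes beside it. The Erbb4 differences there lay between -0.19 ± 0.41 in Sst and 0.20 ± 0.13 in Lamp5 interneuron-like nuclei.

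Erbb3 showed no difference with age beyond its spread. In oligodendrocyte-like nuclei it was 86.2, 102 and 131 CPM in young and 61.9, 104.5 and 126 CPM in old mice fed ad libitum (log2 difference -0.09 ± 0.19, edgeR adjusted p = 0.833). The restricted groups had 106, 106 and 94.6 CPM under acute and 73.1, 104, 107 and 105 CPM under long-term restriction, inside the same range. In oligodendrocyte precursor-like nuclei, acute restriction gave 34.9, 43.4 and 42.1 CPM against 17.8, 31.9 and 34.4 CPM in old mice fed ad libitum, which did not overlap (0.49 ± 0.26, edgeR adjusted p = 0.821).

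Nrg2 in granule neuron-like nuclei was 306, 314 and 377 CPM in young and 362, 416 and 387 CPM in old mice fed ad libitum, overlapping by 1 mouse's value (log2 difference 0.39 ± 0.14, edgeR adjusted p = 0.119). Nrg3 in the same nuclei was 5554, 4017 and 4921 CPM against 5609, 5232 and 5146 CPM (0.30 ± 0.16, edgeR adjusted p = 0.235). In oligodendrocyte precursor-like nuclei Nrg3 was 1976, 1408 and 1991 CPM against 2086, 2316 and 2260 CPM, without overlap (0.37 ± 0.12, edgeR adjusted p = 0.0919). This difference was called with no filter on low counts (0.47, edgeR adjusted p = 0.00924), with a term for the libraries numbered 1 (0.38, edgeR adjusted p = 0.0232) and without young replicate 1 (0.47, edgeR adjusted p = 0.0358). Expression of Nrg3 in astrocyte-like nuclei is not read from its share, as given above. Nrg3 in these nuclei was 61.1, 76.1 and 112 CPM against 89.3, 519 and 441 CPM (2.00 ± 0.61, edgeR adjusted p = 0.206). Thus 1 old mouse, replicate 1, lay among the young. Without that mouse the difference was called (2.52, edgeR adjusted p = 0.00889). Among the 9 classes with Nrg2 its differences ran from -0.11 to 1.18, and none passed the threshold with the filter on low counts.

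Both restriction regimens were set against old mice fed ad libitum. None of the 44 pairs was called, with edgeR as described (filter on low counts, group as the only term) or with DESeq2, for long-term restriction, for acute restriction or for long-term minus acute restriction, where 0.0383%, 0.215% and 0.01% of all tests were called. At an unadjusted p below 0.05 there were 4, 4 and 2 pairs, again with no share of all genes beside them. The medians of the 44 fitted changes were -0.07, -0.08 and -0.02 on the log2 scale. In the interneuron subclasses, 0 of 20 pairs were called with edgeR in each of these comparisons. Among these subclass pairs, Nrg1 in Pvalb interneuron-like nuclei had the highest change under both regimens. It was 1.37 ± 0.43 for long-term (n = 4) and 1.14 ± 0.47 for acute restriction (n = 2), each with an edgeR adjusted p of at least 0.9998. Both groups lay above the old mice fed ad libitum without overlap. In oligodendrocyte-like nuclei Erbb4 was 1923, 1789 and 1944 CPM under acute restriction, below all 3 old mice fed ad libitum (-0.31 ± 0.13, edgeR adjusted p = 0.317) and below the 2544, 2123, 2260 and 2170 CPM of long-term restriction (long-term minus acute 0.32 ± 0.12, edgeR adjusted p = 0.635). In oligodendrocyte precursor-like nuclei the acute group lay above instead, at 4061, 3396 and 3707 CPM against 2992 to 3210 CPM (0.27 ± 0.11, edgeR adjusted p = 0.635). Neither was called.

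**Figure D5:**
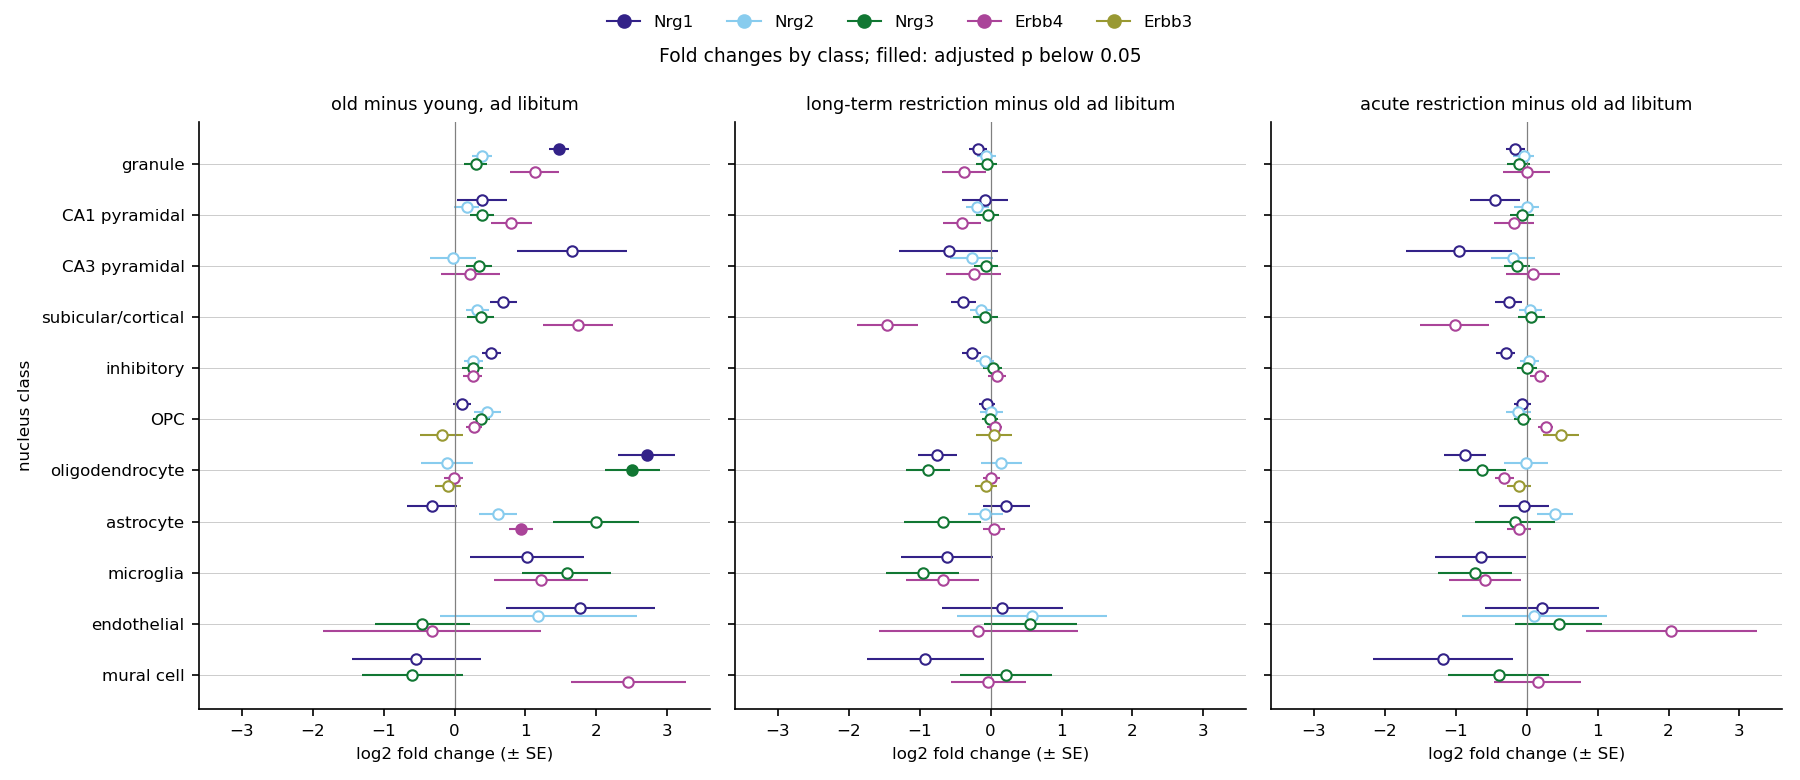
Log2 fold change with its SE for each gene and class, in old minus young mice fed ad libitum and in long-term and acute restriction minus old mice fed ad libitum, with filled points for an edgeR adjusted p below 0.05. The 4 filled points, all in the age comparison, are Nrg1 in granule neuron-like (1.47) and oligodendrocyte-like (2.71) nuclei, Nrg3 in oligodendrocyte-like (2.51) and Erbb4 in astrocyte-like nuclei (0.94).

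Whether a gene's change differed between the 11 classes was tested with an interaction of class and group (edgeR, with a term for each library). For age, the responses of Nrg1 (adjusted p = 0.0481) and Nrg3 (edgeR adjusted p = 0.00527) differed between classes, where 0.644% of 18017 genes did. Those of Erbb4 (edgeR adjusted p = 0.347), Nrg2 and Erbb3 were not called, which does not show that they were alike in all classes. The Nrg1 call was lost without any single young or acute restriction library, old ad libitum replicate 4 or long-term replicate 2 or 3 (edgeR adjusted p from 0.0731 to 0.444), and the Nrg3 call without old ad libitum replicate 4 (edgeR adjusted p = 0.0643) or young replicate 1 (0.0519). None of the 5 genes was called for a difference between classes in its response to long-term or acute restriction, where 0.111% and 0.167% of genes were called with edgeR.

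The rest of the pathway was described from a list of 21 genes. Of its 8 other ligands, 5 were tested in at least 1 class: Tgfa was highest in oligodendrocyte precursor-like nuclei at 180 ± 26.7 CPM, Hbegf in endothelial-like nuclei at 36.7 ± 24.1 CPM, Nrg4 in hilar mossy cell-like nuclei at 14.6 ± 8.03 CPM, Egf in Cajal-Retzius neuron-like nuclei at 13.1 ± 10.9 CPM and Btc in oligodendrocyte-like nuclei at 10.5 ± 6.24 CPM. The first places of Nrg4 and Egf lie within the spread between mice. CA3 pyramidal neuron-like nuclei had 14.4 ± 3.07 CPM of Nrg4, and astrocyte-like nuclei 11.8 ± 3.34 CPM of Egf. The Egf level in Cajal-Retzius neuron-like nuclei rests on 8 UMIs. Ereg, Areg and Epgn did not exceed 1.13 CPM in any class. Of the 2 other receptors, Egfr, the founding member of the family, was highest in fibroblast-like (547 ± 223 CPM) and astrocyte-like nuclei (361 ± 36.1 CPM). Erbb2, the partner of ErbB3, did not exceed 7.63 CPM and passed the filter in no class. No ligand or receptor of this list was called with edgeR in any comparison.

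All 4 processing enzymes were tested. Bace1 was highest in oligodendrocyte-like nuclei at 69.6 ± 16.8 CPM, and Adam10 and Adam17 in microglia-like nuclei at 378 ± 161 and 176 ± 45.4 CPM. The pathway's only 2 calls were of Adam19, a metalloprotease that can cut neuregulin precursors, in oligodendrocyte-like nuclei. They were 1 of 123 pairs with age and 1 of 123 under acute restriction, where 1.55% and 0.215% of all tests were called, so the share with age was near that of all genes. Its mean log2 CPM was 6.22 ± 0.28 (SD, n = 3) in young mice, 6.997 ± 0.14 in old mice fed ad libitum and 6.08 ± 0.37 under acute restriction, and the old ad libitum group overlapped neither. Adam19 rose with age by 0.65 ± 0.18 on the log2 scale (edgeR adjusted p = 0.0217) and fell by 0.77 ± 0.16 under acute restriction (edgeR adjusted p = 0.00625), the 2 comparisons sharing the old ad libitum libraries. Both calls were lost with the median UMIs per nucleus as a covariate and without old ad libitum replicate 2, each of which left 0 pathway calls. All 7 adaptors and regulators were tested and none was called: Erbin, which binds ErbB2, was highest in oligodendrocyte-like nuclei at 1292 ± 178 CPM, Lrig1, which restrains ErbB receptors, in astrocyte-like nuclei at 252 ± 50.5 CPM, and Dlg4, the postsynaptic scaffold PSD-95, in CA1 pyramidal neuron-like nuclei at 119 ± 17.4 CPM.

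By the correlation of log2(CPM + 1) over the means of 15 classes, among 12965 genes, the patterns nearest to that of Erbb3 were those of Ninj2 (Pearson r = 0.951), Fa2h (0.949) and Plxnb3 (0.939). Nearest to Erbb4 were Sox2ot (r = 0.916), Dusp10 (0.848) and Npas3 (0.839). Nearest to Nrg3 were Cdr1os (r = 0.988), Scn2a (0.987) and Myt1l (0.986). Nrg1 was nearest to Kcnh7 (r = 0.859), Osbpl10 (0.853) and Pdzrn4 (0.844), and Nrg2 to Kcnk1 (r = 0.82), Prr16 (0.813) and Adcyap1r1 (0.803). The class means come from the same 13 libraries and differ in depth, so these values describe likeness only.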

How the data were processed

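The submitters deposited UMI counts per gene and barcode, 1 matrix per sample, made with Cell Ranger 4.0.0 on mm10 per the submitters' processing notes; filters before deposit are not given in the sources used here. Of 105759 barcodes, 105427 passed a minimum of 500 genes and a maximum of 5% mitochondrial RNA, and 7386 doublets were removed with Scrublet at an assumed 0.8% per 1000 barcodes. Nuclei were clustered with scanpy 1.11.5 and leidenalg 0.10.2 (2000 variable genes, 30 components, resolution 1, 48 clusters); the 5 genes and their pathway were left out of clustering (2 of the 5 would otherwise have been among the variable genes). Clusters were named from fixed marker lists. UMIs were summed per mouse and class with at least 20 nuclei, filtered and tested with edgeR 4.0.16 (quasi-likelihood, TMM scaling, all 13 mice in one model of group, Benjamini-Hochberg over all genes of a class) in R 4.3.3. Levels leave out mice with fewer than 20 nuclei of a class. The labels identify single animals only by a sample number, and each sample was taken as 1 mouse. The p-values thus measure the spread between these samples.

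All 5 genes were plotted in every class with levels, whatever their values. Also named were pathway genes where called and 3 genes of highest correlation for each of the 5 genes. The text does not describe every class. Levels in macrophage-like and fibroblast-like nuclei are given for Erbb4 only, apart from an upper bound for Erbb3. Apart from that bound, no level or change of the 5 genes is given singly for endothelial-like or mural cell-like nuclei. The genes and lists were chosen with earlier results of these data known. The tests were run on simulated counts with known changes. Part of these changes was not recovered, most of all in the test of differences between classes. A missing call thus does not show that a change is absent. Alternatives were DESeq2 1.42.0, its size factors in edgeR, no filter on low counts, no doublet removal, a replicate block, a term for the libraries numbered 1, median UMIs per nucleus as a covariate, a gene length correction, thinned nuclei, the compared groups alone and each library left out. Comparing all 10 old mice with the young, and leaving out the 4 libraries numbered 1, were added after the data were seen.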

Additional observations from a re-analysis of the deposited data

Results flagged for a closer look

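Among the 4 mice under long-term restriction, Erbb3 in oligodendrocyte-like nuclei was 73.12 CPM in replicate 1 and 103.6 to 107.1 CPM in the other 3, a gap large enough to set replicate 1 apart from its group. The value of replicate 1 rests on 24 UMIs. The libraries numbered 1, which deviate together, also had the lowest Erbb3 level in the young (86.2 CPM) and old ad libitum (61.9 CPM) groups, and not under acute restriction (106 CPM). Among 37 groups of 4 examined in this way, chance sets apart about 1 in 20.

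The age response differed between nucleus classes for Nrg1 (edgeR adjusted p = 0.0481), whose fitted changes ran from -0.54 to 2.71 on the log2 scale over 11 classes, and for Nrg3 (edgeR adjusted p = 0.00527), with changes from -0.59 to 2.51. Both upper values are those of oligodendrocyte-like nuclei, whose shares with a UMI, averaged over mice, were not above those of microglia-like nuclei at 1000 UMIs. The Nrg1 call was lost when any 1 of 9 of the 13 libraries was left out, and the Nrg3 call for 2 of them.

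Nuclei in unnamed clusters, which enter no comparison, also held RNA of all 5 genes: 271924 UMIs of Nrg1, 14008 of Nrg2, 597030 of Nrg3, 48 of Erbb3 and 16831 of Erbb4. The highest Nrg1 level of an unnamed cluster, pooled over mice, was 6418 CPM in cluster 26 (445 nuclei, leading genes Plch1 and Fermt1), and the larger clusters 13, 15 and 6 had 3989, 3740 and 3526 CPM, all in or above the range of the mouse values of Cajal-Retzius neuron-like nuclei. Cluster 46, with 43 nuclei, had 4413 CPM. The highest Nrg3 level was 8784 CPM and the highest Erbb4 level 3378 CPM, both in cluster 38 (177 nuclei, with Tac2, Chat and Chrna3 among its leading genes).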

How the results depend on the processing

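Of the 176 results for a gene, class and comparison, 4229 of 4277 alternatives kept their side of the threshold, 9 lost a call and 39 gained one. No called change took the other sign; among changes uncalled both ways, 339 alternatives did. For the 4 called pairs, 94 of 103 alternatives kept the call. Nrg1 in granule neuron-like nuclei kept it in every alternative run, with a change of 1.06 to 1.57. Calls gained with age by DESeq2 were Erbb4 in granule neuron-like (1.11), Nrg1 in inhibitory neuron-like (0.53) and subicular or cortical excitatory neuron-like (0.68) and Nrg3 in astrocyte-like nuclei (2.07).

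The 4 member calls with age became 7 with no filter on low counts, 8 with DESeq2, 7 with the replicate block, 7 with a term for libraries numbered 1, 7 with all 10 old mice against young, 8 without the 4 libraries numbered 1, and 1 with the UMI covariate. Leaving out 1 library gave 3 to 6. Against 0 calls for long-term restriction there was 1 with no filter and 2 with the replicate block, and 0 to 2 when 1 library was left out: without long-term replicate 3, Nrg1 (-1.09, edgeR adjusted p = 0.00212) and Nrg3 (-1.26, edgeR adjusted p = 0.000314) were called lower in oligodendrocyte-like nuclei. Against 0 calls for acute restriction there was 1 with no filter, 2 with the replicate block, 2 with the compared groups alone, 1 without the 4 libraries numbered 1, and 0 to 1 when 1 library was left out. Against 0 calls for long-term minus acute restriction there was 1 without the 4 libraries numbered 1. The 2 pathway calls became 4 with no filter, 1 with DESeq2, 6 with the term for libraries numbered 1, 0 with the UMI covariate, 4 without the 4 libraries numbered 1, and 0 to 4 when 1 library was left out. Class differences, 2 in the reported fit, were 0 to 2 when 1 library was left out. The cause of these shifts was not tested.

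The labels do not say that replicate numbers pair the mice. The median correlation of same-numbered libraries' deviations was 0.296 for number 1, 0.0505 for number 2, -0.0142 for number 3 and 0.2 for number 4, against 0.104 between different numbers other than 1 and -0.153 between number 1 and the others. The numbers are those of the sample titles; the deposited files number the young and acute restriction libraries 1, 3 and 4 instead of 1, 2 and 3, so the block beyond number 1 is uncertain. With the replicate block, Nrg3 (0.47, edgeR adjusted p = 0.00324) and Erbb4 (0.29, edgeR adjusted p = 0.0461) in oligodendrocyte precursor-like and Erbb4 in granule neuron-like nuclei (1.14, edgeR adjusted p = 0.0282) were called higher with age, and Nrg1 (-1.14, edgeR adjusted p = 0.00294) and Nrg3 (-0.96, edgeR adjusted p = 0.00629) in oligodendrocyte-like nuclei were called lower under acute restriction, and Nrg1 (-0.98, edgeR adjusted p = 0.00572) and Nrg3 (-1.14, edgeR adjusted p = 0.00133) under long-term restriction. Depth limits the vascular and macrophage-like classes, with 178 to 383 nuclei, and Erbb3 outside the oligodendrocyte lineage.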

Other observations

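Committed oligodendrocyte precursor-like nuclei, a stage between precursors and oligodendrocytes, numbered 103 over 12 mice and were too few for a test. Pooled over mice, Nrg1 in them was 1536 CPM (exact 95% Poisson interval 1424 to 1654, counting error only), and Erbb4 was 2092 CPM (1961 to 2229). Nrg3 was 519 CPM (455 to 590), Nrg2 110 CPM (81.3 to 144) and Erbb3 15.3 CPM from 7 UMIs (6.17 to 31.6). Beside the class means over mice, Nrg1 was thus 833 CPM in precursor-like, 1536 CPM in committed precursor-like and 91.0 CPM in oligodendrocyte-like nuclei. This order has no replicate check.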
